A study of Tupaia belangeri with 6 samples.

Results

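Collagen genes were examined in nuclei of the tree shrew (TS) hippocampus, across neuron subtypes, glia and vascular cells and between TSs with Alzheimer's-like pathology (ALP) and control TSs. The genes were chosen by name alone, as every annotated feature whose symbol is COL, a number, A and a number, which gave 45 of 83605 features. Of these, 41 had at least 1 unique molecular identifier (UMI, 1 captured RNA molecule) in the nuclei kept for analysis and 29 had at least 100. Single-nucleus RNA sequencing was done on frozen hippocampus of 3 control and 3 ALP TSs (Tupaia belangeri), with 1 library for each animal. The ALP TSs were naturally aged animals with deficits in a maze task, the control TSs were of matching age, and no engineered allele or agent is named for either group. The age and sex of each animal are not given in the labels, and such a spontaneous phenotype is defined by behaviour and pathology and not by a known mutation.

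Collagens are secreted or membrane proteins built from 3 chains wound into a triple helix, and they form fibrils, basement membranes and the linkers between them. In the brain, fibroblasts of the meninges and large vessels make fibrillar collagens, and endothelial and mural cells lay down the type IV network on which capillaries rest. Several collagens are also made by neurons, among them COL19A1, which hippocampal interneurons secrete and which takes part in the formation of inhibitory synapses, and COL25A1, a transmembrane collagen whose shed part is found in amyloid plaques.

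From 37603 barcodes, 28233 nuclei were kept, with 62553881 UMIs, and 53.6% to 84.0% of the barcodes of a library passed. Control 2 stood apart, with the fewest barcodes (3011), the lowest share kept and the highest median depth (2187.5 UMIs per nucleus, against 1502.5 to 1804 in the other libraries). At most 0.465% of barcodes were shared between any pair of libraries. Collagens held 31568 UMIs, or 0.0505% of the total, and a single non-coding feature, LINC-FRMD8-1, held 20.6%.

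Nuclei were sorted into classes by clustering without the collagen genes, and each class name stands for nuclei that are like that type by their markers. The classes were oligodendrocytes (Oligo, 8075 nuclei), astrocytes (Astro, 3232), granule neurons (Gran, 2779), oligodendrocyte precursors (OPC, 2715), interneurons (InN, 2457), pyramidal neurons (Pyra, 2094), microglia (Micro, 1394), deep-layer excitatory neurons (DeepExN, 888), vascular cells (597) and ependymal cells (163). Neurons were further divided by a leading marker into InN with LAMP5 (523), VIP (522), CNR1 (488), SST (423) or PVALB (359), Pyra with FIBCD1 (1222), TSHZ2 (639) or NTS (233), and DeepExN with FOXP2 (492) or SAXO1 (396). Vascular nuclei comprised endothelial (Endo, 277 nuclei, with FLT1, CLDN5 and VWF), mural (132, with PDGFRB, RGS5, NOTCH3 and ABCC9) and fibroblast (Fibro, 79, with DCN, FBLN1, LAMA2 and TBX18) nuclei, and 109 vascular nuclei stayed without a subtype. The mural markers ACTA2 and MYH11 did not mark the mural nuclei, and the name DeepExN FOXP2 rests on 3 markers (FOXP2, HS3ST4 and NR4A2). Levels are given as CPM, the UMIs of a gene scaled to 1000000 UMIs of its class in a library, as mean ± SD over the libraries with at least 10 nuclei of the class, and they are compared between classes for the same gene. Mural levels rest on 3 libraries, Fibro levels on 4, and those of DeepExN FOXP2, Pyra TSHZ2 and Pyra NTS on 5. A class of 47 CajalRetzius nuclei had at least 10 nuclei in Control 3 only and is described at the end.

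The summed collagen level was highest in Fibro nuclei, at 3714 ± 802 CPM (SD, n = 4), and lowest in Micro, at 162 ± 39.3 CPM (SD, n = 6). Some neurons had sums as large as those of Endo and Mural nuclei. InN CNR1 held 1511 ± 257 CPM (SD, n = 6), DeepExN FOXP2 1109 ± 295 CPM (SD, n = 5), Mural 1072 ± 219 CPM (SD, n = 3) and Endo 745 ± 164 CPM (SD, n = 6). Among the other neurons InN PVALB stood at 841 ± 107 CPM, InN SST at 727 ± 67.1 CPM, Pyra FIBCD1 at 429 ± 48.0 CPM and Gran at 417 ± 109 CPM (SD, n = 6 each). In glia the sum was 596 ± 61.3 CPM in Astro, 536 ± 40.6 CPM in OPC and 197 ± 49.9 CPM in Oligo (SD, n = 6 each).

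**Figure D1:**
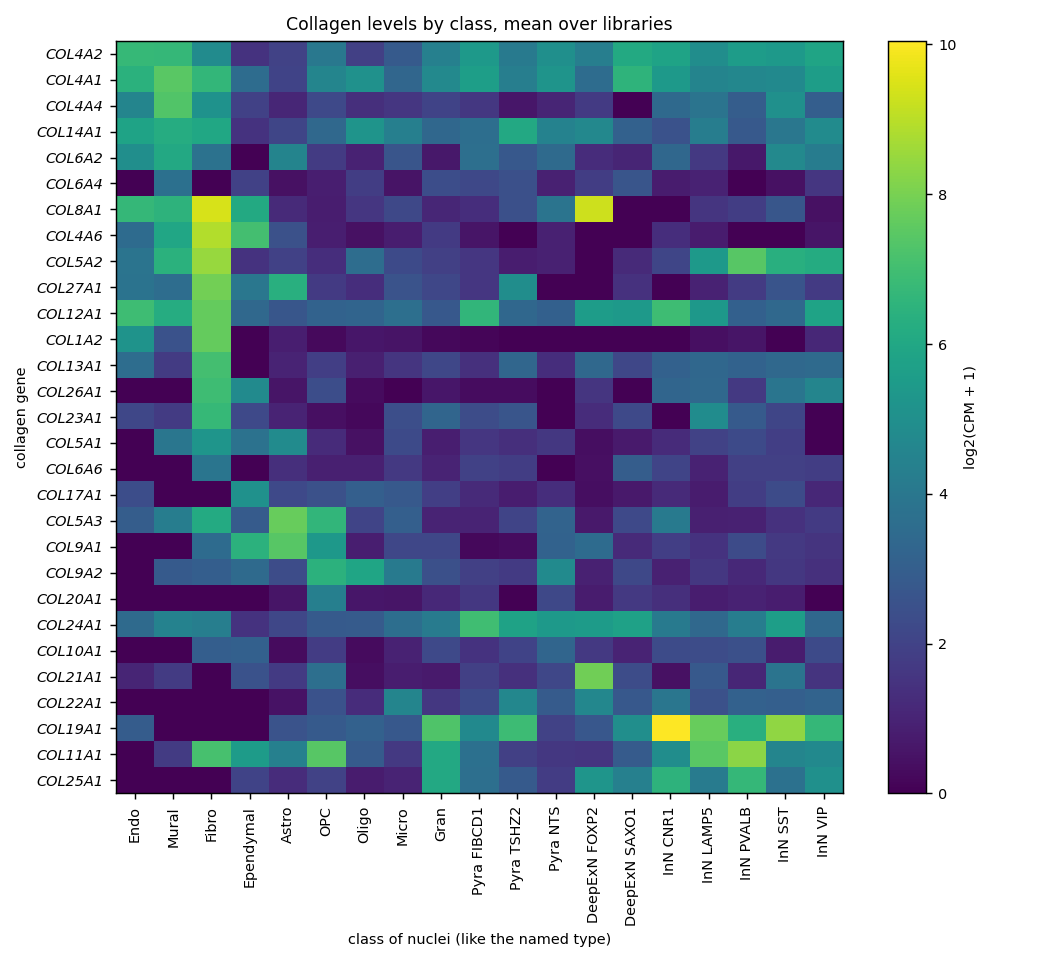
Mean level of 29 collagen genes (rows, those with at least 100 UMIs in kept nuclei) in 19 classes of nuclei (columns), as the mean over libraries of log2(CPM + 1) in colour. Fibro nuclei hold the highest level of many genes, COL19A1 peaks in InN CNR1, COL21A1 in DeepExN FOXP2, and COL5A3 and COL9A1 in Astro.

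The plot of mean levels by class shows that collagens differed in the class where their mean was highest, and the families are described in turn. Several genes had a like level in more than 1 class. For each gene the class with the highest mean was compared with the next by the number of libraries in which it was higher. The two-sided exact sign-flip permutation test over libraries cannot go below p = 0.03125 with 6 libraries, and none of the 29 genes passed after adjustment (lowest adjusted p = 0.242), so that the orders below are descriptions.

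Collagens that lie along fibrils and link them to other molecules (the fibril-associated collagens with interrupted triple helices) made up 10 of the genes, of which 8 had at least 100 UMIs, with 13266 UMIs together. COL19A1 was the leading collagen of the InN CNR1 nuclei, with 1059 ± 220 CPM (SD, n = 6) against 332.5 ± 101 CPM in InN SST and 207 ± 87.8 CPM in InN LAMP5. In InN CNR1 its level was 920, 933 and 1305 CPM in Control 1 to 3 and 1004, 1361 and 832 CPM in ALP 1 to 3. In InN SST it was 378, 438 and 157 CPM in the controls and 309, 407 and 306 CPM in ALP. InN CNR1 was thus above InN SST in 6 of 6 libraries, the ranges of the 2 subtypes did not overlap, and InN SST was above InN LAMP5 in 6 of 6. The gene had at least 1 UMI in 71.3% of 488 InN CNR1 nuclei (median depth 5209 UMIs) but in 0.842% of Oligo nuclei (median depth 1329), which serve here as a measure of free RNA. After thinning each nucleus to 1000 UMIs these shares were 48.4 ± 7.9% (SD, n = 6) and 0.761%. In InN LAMP5 it was at 318, 139 and 74.6 CPM in the controls and 221, 268 and 221 CPM in ALP. In InN VIP, the next class of interneurons, it varied more, with 34.6, 227 and 122 CPM in the controls and 56.0, 122 and 53.1 CPM in ALP. Outside InN, COL19A1 reached 154 ± 68.9 CPM in Gran, with 114, 285 and 171 CPM in the controls and 134, 129 and 92.4 CPM in ALP. A cluster of 358 Gran nuclei led by PROX1 held less, at 35.3 ± 16.8 CPM (SD, n = 5), against 168 ± 65.3 CPM (SD, n = 6) in the other Gran nuclei. In Pyra TSHZ2 it stood at 117 CPM.

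COL12A1, which binds the surface of fibrils, was highest in Fibro nuclei (206 ± 67.7 CPM, SD, n = 4). The next classes were InN CNR1 (121 ± 34.7 CPM, SD, n = 6), Endo (119 ± 58.1 CPM, n = 6) and Pyra FIBCD1 (97.2 ± 50.4 CPM, n = 6), which lay within 1 SD of each other. In Endo its values were 124, 62.6 and 72.0 CPM in the controls and 137, 98.4 and 222.5 CPM in ALP. Those values spread widely and rest on 3 to 20 UMIs a library. COL21A1 had its highest level in DeepExN FOXP2, with 153 and 144 CPM in Control 1 and 2 and 199, 368 and 292 CPM in ALP 1 to 3, whereas Control 3 held too few of these nuclei. The next class, InN SST, reached 13.5 ± 16.9 CPM, and DeepExN FOXP2 was higher in 5 of 5 libraries. COL21A1 had a UMI in 39.2% of DeepExN FOXP2 nuclei (median depth 4271.5) and in 0.0495% of Oligo nuclei.

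COL9A1, a chain of type IX collagen best known from cartilage, was highest in Astro (172 ± 46.4 CPM, SD, n = 6), above ependymal nuclei (86.2 ± 45.2 CPM) in 6 of 6 libraries. Its Astro level was 247, 161 and 138 CPM in the controls and 135, 139 and 210 CPM in ALP. Its partner chain COL9A2 was instead highest in OPC (86.4 ± 21.2 CPM) and Oligo (58.5 ± 31.7 CPM). COL20A1 had its highest level in OPC as well, at 19.4 ± 5.93 CPM (SD, n = 6). COL14A1, another fibril-binding collagen, did not mark 1 class, with 74.1 ± 30.9 CPM in Mural, 65.9 ± 31.7 CPM in Pyra TSHZ2, 62.3 CPM in Fibro and 56.2 CPM in Endo. In Pyra TSHZ2 it was at 59.8 and 109.5 CPM in Control 1 and 2 and at 32.0, 85.5 and 42.7 CPM in ALP. Across Oligo libraries COL14A1 hardly varied, at 35.3 ± 2.71 CPM (SD, n = 6). COL22A1 was at a like level in DeepExN FOXP2 (24.3 CPM), Pyra TSHZ2 (24.0 CPM) and Micro (22.9 CPM).

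**Figure D2:**
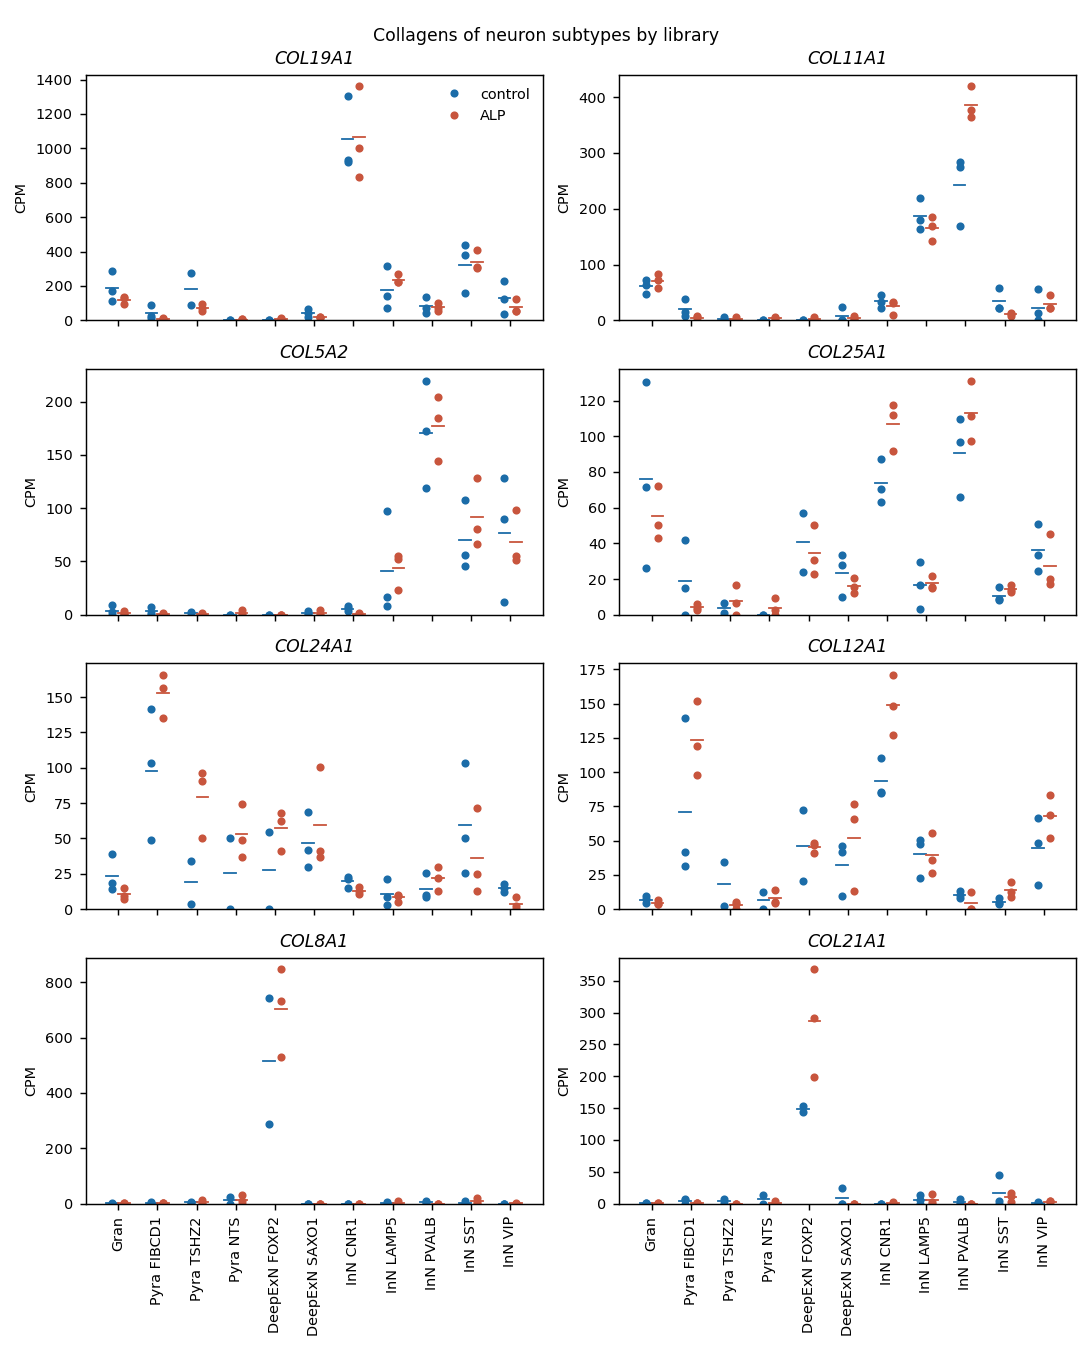
Level (CPM, linear axis from 0) of 8 collagen genes in 11 neuron subtypes, 1 panel a gene. Points are libraries (blue control, red ALP) and bars are group means. COL19A1 stands highest in InN CNR1, COL11A1 and COL5A2 in InN PVALB, COL24A1 in Pyra FIBCD1, and COL8A1 and COL21A1 in DeepExN FOXP2.

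Fibrillar collagens, which form the banded fibres of connective tissue, numbered 11, of which 7 had at least 100 UMIs, with 9376 UMIs together. COL11A1 was the leading collagen of InN PVALB, with 169, 274 and 284 CPM in the controls and 364, 377 and 419 CPM in ALP. InN LAMP5 followed with 179, 219 and 164 CPM in the controls and 168, 142 and 185 CPM in ALP. InN PVALB was the higher in 5 of 6 libraries, the exception being Control 1. OPC (172 ± 28.7 CPM, SD, n = 6) did not differ from InN LAMP5 (176 ± 25.9 CPM) beyond its spread, and Gran held 66.1 ± 12.8 CPM. In Gran the values were 72.9, 46.6 and 63.6 CPM in the controls and 57.8, 82.5 and 73.1 CPM in ALP, all below those of InN LAMP5. In the PROX1-led cluster of Gran COL11A1 was at 24.4 ± 13.3 CPM (SD, n = 5), and in the other Gran nuclei at 72.8 ± 16.8 CPM (SD, n = 6). COL11A1 had a UMI in 55.7% of InN PVALB nuclei (median depth 4407) and in 0.879% of Oligo nuclei.

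COL5A2, a chain that regulates the width of fibrils, was highest in Fibro (362 ± 86.4 CPM, SD, n = 4) and next in InN PVALB (174 ± 37.5 CPM, SD, n = 6). In InN PVALB it was at 219.6, 173 and 119 CPM in the controls and at 204, 184 and 144 CPM in ALP. InN SST held less, with 55.8, 108 and 45.6 CPM in the controls and 66.8, 128 and 80.9 CPM in ALP. InN VIP overlapped InN SST, with 12.3, 89.4 and 128 CPM in the controls and 51.7, 55.3 and 98.6 CPM in ALP. COL5A3, of the same type V collagen, was a gene of glia, with 211 ± 67.4 CPM in Astro and 96.5 ± 19.97 CPM in OPC (SD, n = 6 each; Astro higher in 6 of 6 libraries). COL5A3 had a UMI in 31.2% of Astro nuclei (median depth 1884) and in 0.347% of Oligo nuclei.

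COL24A1 was the leading collagen of Pyra FIBCD1, at 141, 49.1 and 103 CPM in the controls and 135, 166 and 157 CPM in ALP. Pyra TSHZ2 reached 55.1 ± 38.9 CPM (SD, n = 5) and lay lower in 5 of 5 libraries. The other pyramidal and deep-layer subtypes, DeepExN SAXO1 (52.9 CPM), DeepExN FOXP2 (45.2 CPM) and Pyra NTS (42.0 CPM), were close to Pyra TSHZ2. In Pyra NTS the values of COL24A1 were 50.5 and 0 CPM in Control 1 and 3 and 48.6, 36.8 and 74.3 CPM in ALP, from at most 17 UMIs a library. COL24A1 had a UMI in 38.8% of Pyra FIBCD1 nuclei (median depth 5096) and in 0.644% of Oligo nuclei. After thinning to 1000 UMIs these shares were 10.6 ± 4.0% (SD, n = 6) and 0.541%.

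The fibrillar genes of types I and III had their highest means in Fibro nuclei. COL2A1, of type II, had 0 UMIs in Fibro and 32 of its 48 UMIs in InN. COL1A2, a chain of type I collagen of skin and bone, was at 205 ± 185 CPM in Fibro (SD, n = 4) and at 34.7 CPM in Endo. COL3A1, typical of vessel walls, reached 239 ± 167 CPM in Fibro from 28 UMIs, and COL1A1 had 14 UMIs there. COL27A1 was at 417 and 371 CPM in the Fibro nuclei of Control 1 and 3 but at 82.7 and 76.6 CPM in those of ALP 1 and 3, and it reached 81.0 ± 28.6 CPM in Astro. COL5A1 was at 36.8 ± 59.1 CPM in Fibro and at 27.5 ± 7.37 CPM in Astro, so that these classes did not differ beyond the spread.

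The basement membrane network of type IV collagen had 6 genes, of which 4 had at least 100 UMIs, with 3821 UMIs together. COL4A1 was highest in Mural nuclei, where it was at 177 and 168 CPM in Control 1 and 3 and at 183 CPM in ALP 2. In Endo it was at 74.2, 83.5 and 57.6 CPM in the controls and at 68.3, 172 and 49.4 CPM in ALP. DeepExN SAXO1 did not differ from Endo beyond the spread, with 147, 83.3 and 84.8 CPM in the controls and 60.9, 86.2 and 93.8 CPM in ALP. COL4A1 was also found in Pyra NTS, at 25.3 and 37.4 CPM in Control 1 and 3 and at 31.4, 36.8 and 47.8 CPM in ALP, from 1 to 11 UMIs a library. COL4A1 had a UMI in 29.3% of DeepExN SAXO1 nuclei, 27.3% of Mural and 4.35% of Oligo nuclei. These shares are given without thinning, and since the classes differ in depth, they do not rank them. For COL4A1 the Oligo share is not used as a measure of free RNA. Oligo held 382 UMIs of COL4A1 and 24 of COL4A2, where all kept nuclei held 1851 and 1324.

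COL4A2 reached 68.0, 209 and 101 CPM in the controls and 102, 123 and 24.7 CPM in ALP in Endo, whose counts were 1 to 11 UMIs a library. In DeepExN SAXO1 COL4A2 was at 68.4, 74.9 and 47.9 CPM in the controls and 52.8, 37.0 and 125 CPM in ALP. Endo (105 ± 61.5 CPM) and Mural (104 ± 55.4 CPM) could not be ranked. COL4A4 was highest in Mural, with 84.8 and 279.8 CPM in Control 1 and 3 and 109.8 CPM in ALP 2, and COL4A6 in Fibro, with 833 and 371 CPM in Control 1 and 3 and 331 and 383 CPM in ALP 1 and 3. The second class for COL4A6 was ependymal (132 ± 73.2 CPM, SD, n = 6).

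The short-chain collagens, which form open lattices in vessel walls and the cornea, had 3 genes with 2029 UMIs. Among classes with a level in more than 1 library, COL8A1 stood out in 2 unlike ones, Fibro (686 ± 342 CPM, SD, n = 4) and DeepExN FOXP2 (628 ± 222 CPM, SD, n = 5). In DeepExN FOXP2 it was at 743 and 289 CPM in Control 1 and 2 and at 529, 847 and 731 CPM in ALP. In Fibro it was at 750.1 and 1019 CPM in Control 1 and 3 and at 207 and 766 CPM in ALP 1 and 3. The 2 classes overlapped, and Fibro was higher in 2 of the 3 libraries that had both. Among the same classes, Endo (103 ± 82.6 CPM), Mural (89.3 CPM) and ependymal nuclei (67.2 CPM) came next. CajalRetzius nuclei, with a level in Control 3 only, stood there at 493 CPM, from 33 UMIs. COL8A1 had a UMI in 69.9% of DeepExN FOXP2 nuclei, 50.6% of Fibro nuclei and 0.26% of Oligo nuclei. These shares are given without thinning, and since the classes differ in depth, they do not rank DeepExN FOXP2 and Fibro. COL8A1 had a UMI in 0 of 396 DeepExN SAXO1 nuclei, which allows a share with a UMI of up to 0.758% and does not limit the share that makes the gene. COL10A1, known from growth plate cartilage, had its highest mean in Pyra NTS, at 8.62 ± 16.3 CPM (SD, n = 5), but from 3 UMIs. Of its 127 UMIs in kept nuclei, 37 lay in InN and 26 in Gran, so that it did not mark Pyra NTS.

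Of the 4 transmembrane collagens, which are anchored in the cell membrane and shed part of their helix, all had at least 100 UMIs, with 1971 UMIs together. COL25A1 was found in InN PVALB at 109.8, 96.5 and 66.1 CPM in the controls and 97.1, 131 and 111 CPM in ALP. It was at a like level in InN CNR1, with 63.3, 70.3 and 87.4 CPM in the controls and 91.9, 118 and 112 CPM in ALP. Neither subtype was the higher beyond the spread (4 of 6 libraries). In Gran it varied from 26.5 CPM in Control 1 to 131 CPM in Control 2, with 71.7 CPM in Control 3 and 42.9, 50.5 and 72.3 CPM in ALP. COL25A1 had a UMI in 30.4% of InN PVALB, 29.1% of InN CNR1 and 0.0991% of Oligo nuclei. COL13A1, known from the neuromuscular junction, and COL23A1 were highest in Fibro, at 133 ± 64.3 CPM and 104 ± 61.7 CPM (SD, n = 4 each). COL17A1, a collagen of hemidesmosomes, was highest in ependymal nuclei (32.8 ± 30.2 CPM, SD, n = 6).

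Microfibrillar collagens had 7 genes and 811 UMIs, 6 of them of type VI, which forms beaded filaments around cells, and COL28A1. COL6A2 was highest in Mural (66.6 ± 9.30 CPM, SD, n = 3), above Endo (29.9 CPM) in 3 of 3 libraries. COL6A4 and COL6A6 stayed low, and their highest means, 12.2 CPM in Mural and 13.9 CPM in Fibro, rest on 1 and 2 UMIs. Of the 146 UMIs of COL6A4, 35 lay in Gran, 34 in Oligo and 29 in Pyra. Of the 105 UMIs of COL6A6, 24 lay in InN and 21 in Pyra. COL26A1, which fits none of these families, was at 122 ± 125 CPM in Fibro. Below 100 UMIs were COL1A1 (66), COL2A1 (48), COL3A1 (74), COL4A5 (90), COL6A1 (56), COL6A3 (54), COL6A5 (6), COL7A1 (4), COL8A2 (17), COL9A3 (27), COL11A2 (25) and COL18A1 (94). The nearest gene above the limit was COL1A2, with 101 UMIs. COL4A3, COL15A1, COL16A1 and COL28A1 had 0 UMIs in kept nuclei, which allows up to 0.048 CPM.

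Chains that assemble in 1 molecule were compared by the share of their joint UMIs within a class. COL4A1 and COL4A2, which are partners in basement membranes, had UMIs of both in every class described here. The share of COL4A1 was 45.6% in Endo, 54.5% in Astro, 55.8% in Gran, 55.4% in DeepExN SAXO1 and 42.8% in InN. In Oligo it was 94.1% (382 of COL4A1 and 24 of COL4A2, exact 95% interval 91.3% to 96.2%, counting error only), with 77.8% to 100% in single libraries. Oligo was higher in 6 of 6 libraries than each of 10 classes (exact sign-flip permutation p = 0.03125, the smallest that 6 libraries allow, and 0.0563 after adjustment over the classes), and higher than Astro and Micro in 5 of 6. It was higher than Mural in 3 of 3, Fibro in 3 of 4 and ependymal nuclei in 1 of 3 libraries, classes in which COL4A1 also held most UMIs but which had at most 39 UMIs of COL4A1. This comparison was chosen with the values seen. Since both genes are counted at the 3′ end, their share also depends on how each end is annotated and used, which was not tested.

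**Figure D3:**
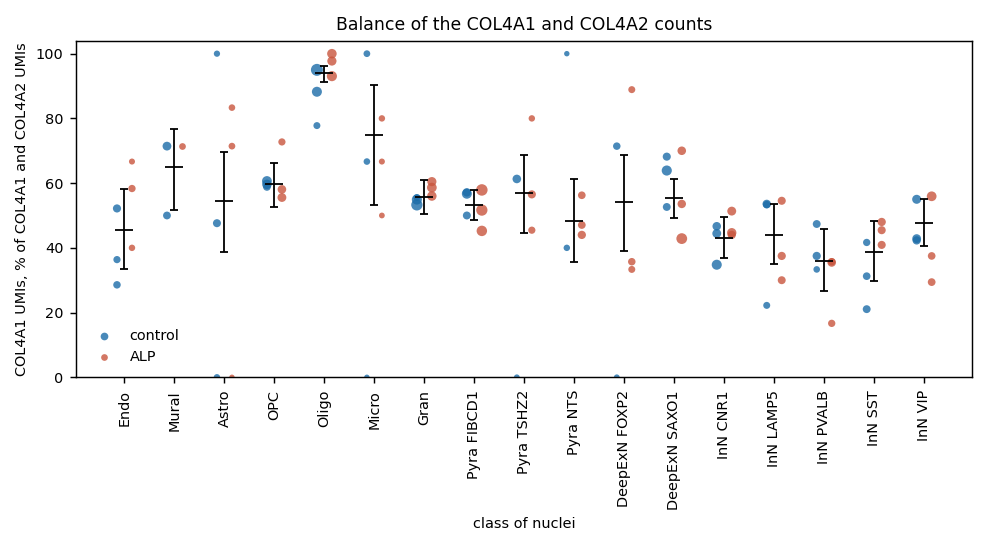
Share of COL4A1 among the UMIs of COL4A1 and COL4A2 (percent) by class. Points are libraries, with size by the number of UMIs, and black marks give the pooled share with its exact 95% interval (counting error only). Oligo stands at 94.1%, Gran at 55.8%, Endo at 45.6% and InN PVALB at 35.8%.

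Other partners parted along cell types too. COL9A1 made up 97.5% of the UMIs of COL9A1 and COL9A2 in Astro (1112 and 29 UMIs), 30.5% in OPC (219 and 498) and 1.73% in Oligo (13 and 739). COL5A2 made up 96.5% of the UMIs of COL5A2 and COL5A1 in InN (661 and 24) and 9.09% in Astro (19 and 190). COL6A2 made up 98.5% of the UMIs of COL6A2 and COL6A1 in Astro (134 and 2) and 63.2% in vascular nuclei. Astro and InN thus held nearly opposite shares of COL5A1 and COL5A2, and Astro and Oligo of COL9A1 and COL9A2. COL5A3, another chain of type V, was not part of this share and had 1292 UMIs in Astro and 58 in InN. These shares are pooled over libraries and are given without a test.

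To ask whether collagens differed between ALP and control TSs, the UMIs of each class were added up for each library and tested with edgeR, with p adjusted over all genes tested in the class. Of the 45 genes, 34 passed the filter on low counts in at least 1 class sum, which gave 148 pairs of gene and class. None of the 148 pairs passed (adjusted p under 0.05 and a log2 fold change beyond 0.25), where 0.809% of the pairs of all genes did. At an unadjusted p under 0.05, 27 of 148 pairs (18.2%) stood out in edgeR, 18 higher and 9 lower in ALP, against 16.4% of all pairs, so that the share of collagens was near that of all genes. DESeq2 called 5 of the 148, against 2.51% of all pairs, and edgeR without the filter called 19 of 719, against 1.64%. The pairs are not independent, since the sums of all nuclei, InN, Pyra and DeepExN contain those of their subtypes. In a sum over nuclei, fewer expressing nuclei and less RNA in each cannot be told apart. With 3 libraries a group, p-values measure the spread between these animals only, and a log2 change of 1 was recovered for 29.5% to 33.7% of genes in simulated counts, so that many changes of that size would be missed.

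**Figure D4:**
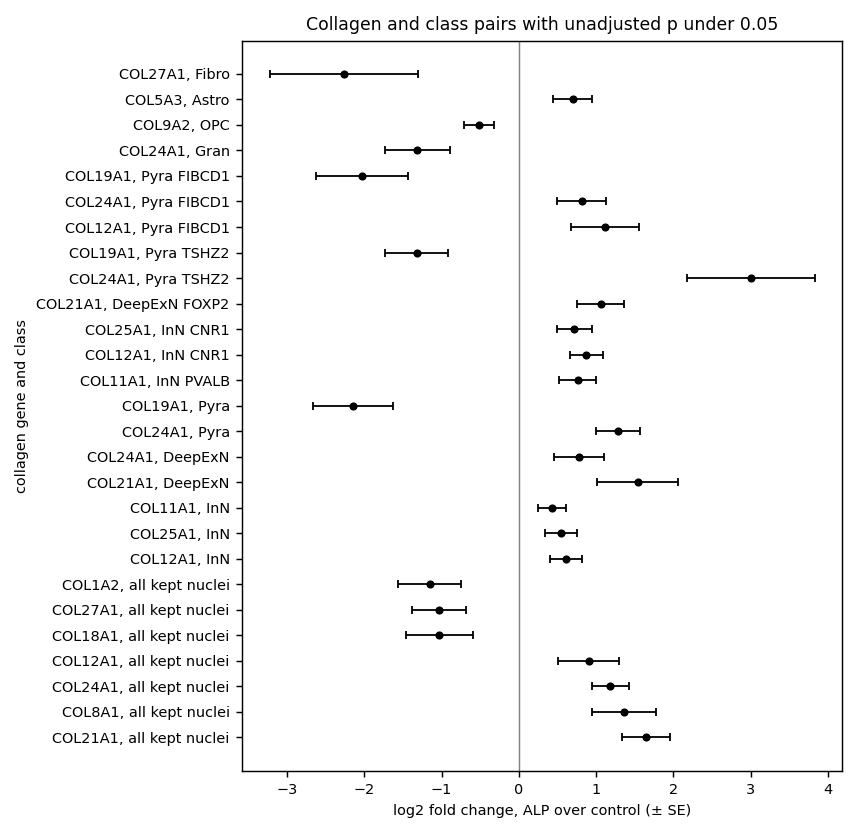
Log2 fold change of ALP over control (points, bars ± SE, edgeR) for the 27 pairs of collagen gene and class with an unadjusted p under 0.05. None passed after adjustment. COL24A1 lies above 0 in Pyra, Pyra FIBCD1 and Pyra TSHZ2 and below 0 in Gran, and COL19A1 lies below 0 in Pyra.

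Among single classes, the pair with the smallest unadjusted p was COL24A1, a fibrillar collagen, in pyramidal neurons. COL24A1 in all Pyra nuclei was at 58.5, 44.2 and 86.5 CPM in the controls and 118, 107 and 144 CPM in ALP, and the groups did not overlap. Its log2 fold change was 1.28 ± 0.28 (SE; edgeR adjusted p = 0.165, 1.27 with an adjusted p of 0.0285 in DESeq2). It was 0.24 when nuclei with more than 2500 genes were kept too. In Pyra FIBCD1 the log2 fold change of COL24A1 was 0.81 ± 0.32 (adjusted p = 0.274, and 0.23 with those nuclei), with overlapping groups. In Pyra TSHZ2 it was 3.00 ± 0.83 (adjusted p = 0.249), from 3.74 and 34.2 CPM in Control 1 and 2 to 96.0, 50.5 and 90.8 CPM in ALP. That value depended on the controls, being 4.36 without Control 2 and 1.15 without Control 1, fits that left a single control library. The mix of subtypes in the Pyra sum differed between libraries. Pyra TSHZ2 held 802438, 146096 and 35298 of the 1419161, 429976 and 323651 Pyra UMIs in the controls. In ALP it held 156170, 771678 and 187215 of 2140601, 1985749 and 2136718. The part of this mix in the Pyra values of COL24A1 and COL19A1 was not tested.

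COL19A1 in Pyra lay the other way, at 166, 39.5 and 80.3 CPM in the controls and 13.1, 34.7 and 10.3 CPM in ALP (log2 fold change -2.15 ± 0.51, edgeR adjusted p = 0.165, -2.11 with an adjusted p of 0.0142 in DESeq2). The log2 fold change was -1.35 without Control 1 and -2.78 (adjusted p = 0.0457) without ALP 2. In Pyra FIBCD1 it was at 24.2, 15.1 and 91.7 CPM in the controls and 6.73, 13.0 and 6.81 CPM in ALP (-2.03 ± 0.59, adjusted p = 0.179, and -1.05 without Control 3). In Pyra TSHZ2 it was at 278 and 89.0 CPM in the controls and 96.0, 70.0 and 53.4 CPM in ALP (-1.32 ± 0.40, adjusted p = 0.271). The value there was -0.22 without Control 1 and -1.75 without Control 2, fits that left a single control library. The groups overlapped in Pyra TSHZ2 but not in Pyra as a whole or in Pyra FIBCD1. In Gran, COL24A1 was at 38.8, 14.0 and 18.2 CPM in the controls and 6.98, 9.25 and 14.9 CPM in ALP (-1.31 ± 0.42, adjusted p = 0.128, and -0.62 without Control 1). A cluster of 358 Gran nuclei led by PROX1 held 255 nuclei of Control 1.

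The difference of the COL24A1 effect between Pyra and Gran was tested in 1 edgeR fit with the library as a term, a comparison chosen after the values were seen. It was 2.64 ± 0.41 on the log2 scale (SE, adjusted p = 0.0156 over 12671 genes), and 2.28 (adjusted p = 0.0258) without the PROX1-led cluster. It was 1.55 (adjusted p = 0.914) with nuclei of more than 2500 genes and 1.64 (adjusted p = 0.149) without Control 1.

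In interneurons, COL12A1 in InN CNR1 was at 84.4, 110.1 and 85.3 CPM in the controls and 127, 171 and 148 CPM in ALP, without overlap (log2 fold change 0.87 ± 0.21, edgeR adjusted p = 0.112, and 0.32 with nuclei of more than 2500 genes). COL25A1 in InN CNR1, whose values stand above, had a log2 fold change of 0.72 ± 0.23 (adjusted p = 0.189, and 0.46 with those nuclei). In all InN it was at 32.1, 49.5 and 46.3 CPM in the controls and 52.3, 58.5 and 57.3 CPM in ALP (0.55, adjusted p = 0.180). COL11A1 in InN PVALB was higher in every ALP library than in every control (0.76 ± 0.24, adjusted p = 0.240), but the value was 0.42 when collagens were let into the clustering and 0.43 with nuclei of more than 2500 genes. All 3 genes lay higher in ALP without passing the test. COL12A1 in Pyra FIBCD1 overlapped between the groups, at 31.6, 139.8 and 42.0 CPM in the controls and 152, 119 and 97.7 CPM in ALP (1.11 ± 0.44, adjusted p = 0.284), and the value was 2.03 (adjusted p = 0.0347) without Control 2, 0.72 without Control 1 and 0.62 with nuclei of more than 2500 genes.

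In glia, COL5A3 in Astro was at 166, 148 and 197 CPM in the controls and 307, 166 and 284 CPM in ALP (log2 fold change 0.70 ± 0.25, edgeR adjusted p = 0.182). Without ALP 2 the value was 1.00 (adjusted p = 0.0300). COL9A2 in OPC was at 121, 89.3 and 95.1 CPM in the controls and 84.3, 60.4 and 68.8 CPM in ALP (-0.51 ± 0.20, adjusted p = 0.228). All 3 ALP libraries lay below all 3 controls. Among vascular classes, 4 of 4 tested collagens in Fibro had a negative log2 fold change, COL27A1 among them (-2.26 ± 0.96, adjusted p = 0.788, 2 libraries a group), as had 188 of all 362 genes tested there. COL3A1 did not pass the filter and lay the other way, at 278 and 69.5 CPM in the Fibro nuclei of Control 1 and 3 and 455 and 153 CPM in those of ALP 1 and 3. In all vascular nuclei COL3A1 was at 29.8, 20.4 and 32.6 CPM in the controls and 187, 96.2 and 98.0 CPM in ALP, without overlap, from 2 to 14 UMIs a library and with no test. Fibro nuclei were 20, 5 and 18 of the 248, 52 and 126 vascular nuclei in the controls and 11, 9 and 16 of the 41, 69 and 61 in ALP. In Endo, ependymal, Micro and Pyra NTS nuclei no collagen passed the filter, and Mural was not tested.

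Over all kept nuclei, 7 of 34 collagens had an unadjusted p under 0.05 in edgeR, a share under the 23.4% of all genes, and the number of nuclei of 1 class moved with several of them. DeepExN FOXP2 nuclei were 106, 11 and 1 in the controls and 156, 149 and 69 in ALP, and they held 76.3% of the UMIs of COL8A1 and 74.4% of those of COL21A1. COL8A1 was at 17.2 ± 11.0 CPM in control and 39.0 ± 14.6 CPM in ALP (SD, n = 3 each, exact permutation p = 0.2). The groups overlapped, with 29.9 CPM in Control 1 and 23.8 CPM in ALP 3. With these nuclei taken out COL8A1 was at 9.23 ± 1.53 CPM in control and 5.18 ± 1.55 CPM in ALP, the opposite order of means (exact permutation p = 0.1, the smallest that 3 against 3 allow). Vascular nuclei, which held 206 of the 1885 UMIs of COL8A1, were a smaller share of the kept nuclei in every ALP library than in every control. CajalRetzius nuclei, with 27 of 47 from Control 3, held another 56. The part of these numbers of nuclei in the remaining difference was not tested. COL21A1 over all nuclei was at 6.16, 5.29 and 6.03 CPM in the controls and 15.1, 23.2 and 9.70 CPM in ALP, without overlap (log2 fold change 1.65 ± 0.31, edgeR adjusted p = 0.0679, and 0.89 with nuclei of more than 2500 genes). Its means went from 5.83 ± 0.47 CPM in control and 16.0 ± 6.79 CPM in ALP to 3.93 ± 2.08 CPM and 2.22 ± 0.73 CPM once DeepExN FOXP2 nuclei were taken out (exact permutation p = 0.3). Within DeepExN FOXP2 itself, COL21A1 had a log2 fold change of 1.06 ± 0.31 (edgeR adjusted p = 0.277), with all 3 ALP libraries above the 2 controls.

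Pyra FIBCD1 nuclei made up 2.51%, 4.21% and 2.05% of the kept nuclei in the controls and 8.20%, 4.43% and 6.53% in ALP, and held 44.1% of the UMIs of COL24A1. COL24A1 over all nuclei was at 21.5, 20.4 and 15.8 CPM in the controls and 40.8, 28.5 and 43.0 CPM in ALP, without overlap (log2 fold change 1.19 ± 0.23, edgeR adjusted p = 0.0679, and 1.27 with an adjusted p of 0.0326 without Control 2). Its means were 19.2 ± 3.03 CPM in control and 37.4 ± 7.79 CPM in ALP, and without these nuclei 16.4 ± 2.46 CPM and 18.9 ± 2.49 CPM (SD, n = 3 each, exact permutation p = 0.3). The median depth of these nuclei moved in the same direction, from 1940.5 to 4077.5 UMIs in the controls to 5067 to 6036 UMIs in ALP.

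Vascular nuclei were 3.53%, 3.22% and 2.19% of the kept nuclei in the controls and 1.04%, 1.32% and 1.30% in ALP. COL1A2, with 71.3% of its UMIs in them, was at 2.34, 3.13 and 1.95 CPM in the controls and 0.642, 1.26 and 0.864 CPM in ALP over all nuclei (log2 fold change -1.15 ± 0.41, edgeR adjusted p = 0.140, and -0.38 with nuclei of more than 2500 genes). Without vascular nuclei COL1A2 was at 0.449 CPM in control and 0.487 CPM in ALP, with overlapping groups (exact permutation p = 0.9). Within vascular nuclei it was at 63.8, 112 and 79.1 CPM in the controls and 53.5, 57.7 and 39.2 CPM in ALP, lower in every ALP library, from 4 to 30 UMIs a library and with no test. COL27A1 was at 13.2, 25.2 and 22.1 CPM in the controls and 5.03, 11.6 and 8.74 CPM in ALP (-1.03 ± 0.35, edgeR adjusted p = 0.127). Its order was kept without vascular nuclei (18.9 CPM in control and 8.11 CPM in ALP) and without Astro (6.68 CPM and 3.19 CPM). COL18A1, the source of endostatin, was at 1.36, 2.88 and 2.75 CPM in the controls and 0.963, 0.921 and 0.960 CPM in ALP (-1.03 ± 0.43, edgeR adjusted p = 0.193), and at 1.71 CPM and 0.635 CPM without vascular nuclei. With 1 piece of tissue for each animal, a difference in the part of the hippocampus taken and a difference between the conditions in the numbers of these nuclei cannot be told apart. The numbers also depend on the filters, among them the limit of 2500 genes, which kept 53.6% (Control 2) to 84.0% (ALP 3) of barcodes. They depend as well on how many nuclei stayed without a name, which is given by library with the processing.

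**Figure D5:**
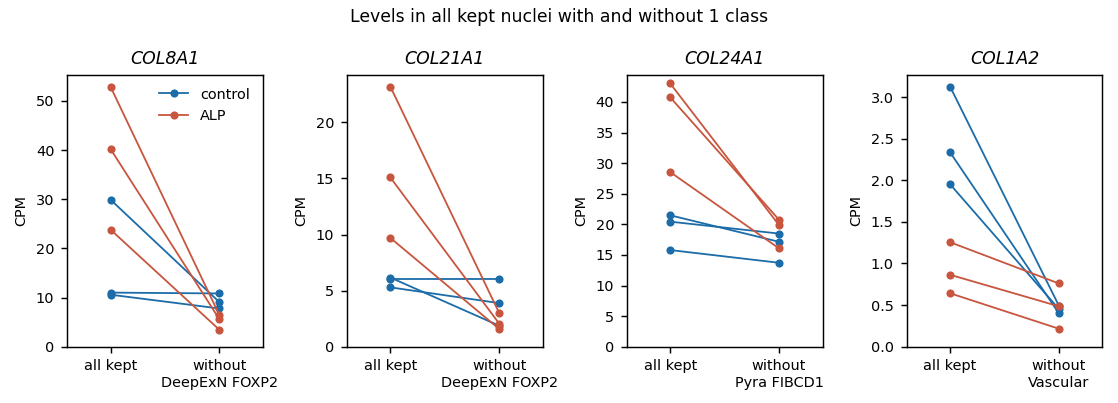
Level (CPM) of COL8A1, COL21A1, COL24A1 and COL1A2 in all kept nuclei and with 1 class taken out (DeepExN FOXP2 for COL8A1 and COL21A1, Pyra FIBCD1 for COL24A1, vascular nuclei for COL1A2). Points are libraries, blue control and red ALP. The mean of COL8A1 lies higher in ALP over all nuclei (39.0 against 17.2 CPM, with overlapping groups) and lower once the class is taken out (5.18 against 9.23 CPM).

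Genes that act on collagens were followed in lists by role, over class sums that do not contain each other. Of 18 genes of collagen biosynthesis, 12 were tested, and 3 of 123 pairs with a class were called higher and 0 lower in ALP, where 0.409% of the pairs of all genes were called higher and 0.735% lower. At an unadjusted p under 0.05, 15 of the 123 were higher and 2 lower, against 6.98% and 7.75% of all pairs. For collagen processing and cross-linking (26 pairs), collagen receptors (37), basement membrane partners (51) and collagen degradation (34) edgeR called 0 pairs in either direction, although 3, 7, 1 and 3 pairs were higher and 3, 0, 2 and 5 lower at an unadjusted p under 0.05. All 3 calls were of PPIB, the proline isomerase that helps collagens fold in the endoplasmic reticulum and acts on many other secreted proteins too. In Oligo PPIB rose from 35.8, 52.1 and 62.6 CPM in the controls to 104.9, 86.2 and 125 CPM in ALP (log2 fold change 1.20 ± 0.25, edgeR adjusted p = 0.0248, where 1.91% of genes were called higher). In OPC it rose from 58.6, 62.0 and 94.3 CPM to 197, 138 and 197 CPM (1.32 ± 0.23, edgeR adjusted p = 0.0396, with 0.398% of genes called higher). In InN LAMP5 it rose from 25.2, 33.7 and 31.1 CPM to 84.2, 88.5 and 64.8 CPM (1.51 ± 0.30, edgeR adjusted p = 0.0349, with 0.353% called higher). The log2 fold change of PPIB was positive in 12 of 12 classes tested, which are sums from the same libraries and are not independent. It ranged from 0.22 to 1.72, with an unadjusted edgeR p under 0.05 in 9. Most of the 15 higher pairs of the biosynthesis list were thus of this 1 gene, and they do not show a shift of the list. The calls rested on few libraries, since all 3 were lost without ALP 1 or ALP 3 (adjusted p from 0.0995 to 0.243), and that in InN LAMP5 also in DESeq2 (adjusted p = 0.0784) and with nuclei of more than 2500 genes (0.97, adjusted p = 0.216). The call in Oligo was lost as well without Control 1 (0.93, adjusted p = 0.0673) or Control 3 (1.48, adjusted p = 0.0763), and that in InN LAMP5 without Control 3 (adjusted p = 0.139) or ALP 2 (adjusted p = 0.0844).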

How the data were processed

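Nuclei of frozen hippocampus were sequenced with the 10× Genomics 3′ platform. The authors deposited 1 matrix of raw counts a library, in which a count is the UMIs of 1 gene in 1 barcode, made by Cell Ranger with a genome of TreeshrewDB. The submitters' processing notes name Cell Ranger 3.1.0 and the headers of the matrices name 6.1.2. The genome build and the use of strand are not given in the sources used here, so that reads of a gene and of an antisense partner may not be told apart. Gene symbols were looked up in the RefSeq table of the assembly TupChi_1.0, which held 42 of the 45 collagen symbols. COL6A4, COL19A1 and COL25A1 were not found there.

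Barcodes with 200 to 2500 genes and under 5% mitochondrial UMIs were kept, after the limits of the study. Counts were scaled to 10000 UMIs and log-transformed, and 2000 variable genes without the collagens, 30 principal components and 20 neighbours were used for Leiden clustering at resolution 2 (scanpy 1.11.5, leidenalg 0.10.2). A cluster was given a name where 3 or more of the markers were found in at least 3% of its nuclei and were at least 1.5 times higher than in other nuclei. At the finest level 4043 nuclei stayed without a name. They were 724, 314 and 1644 of the 7022, 1614 and 5751 kept nuclei in the controls. In ALP they were 393, 488 and 480 of 3927, 5217 and 4702. The number of nuclei of a class in a library thus also depends on how many were named. Doublets were scored by simulation at a rate of 0.8% per 1000 barcodes, clusters with over 15% marked were not named, and marked nuclei were removed only as an alternative. Class names were rebuilt from the counts and may differ from those of the study.

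Sums of UMIs for each library and class (at least 10 nuclei) went into the quasi-likelihood test of edgeR 4.0.16 (R 4.3.3) with TMM factors, a minimum count of 10 and Benjamini-Hochberg adjustment over all genes tested in a class. CPM in the text carry no TMM factors. Exact permutation tests used scipy 1.17.1 on log2(CPM + 1), two-sided. Intervals for shares are exact (Clopper-Pearson) at 95%, and the limit for a count of 0 is 3 counts. They cover counting error only. Simulated counts with known changes gave 94.7% to 97.6% recovery for a log2 change of 2.

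The collagen genes, the lists by role and the markers were chosen with earlier results of these data known. Every collagen is accounted for, and each with at least 100 UMIs is named with the class of its highest mean. Values in every library are given for collagens called between the groups, for those whose groups did not overlap with an unadjusted p under 0.05, for COL4A1, COL4A2 and COL25A1, and for the 2 highest in each neuron and vascular subtype. Of the role lists only called genes are named, at most 3 for each list and class. Alternatives were DESeq2 1.42.0, upper-quartile normalization, no filter, a replicate block, leaving out each library, keeping nuclei above 2500 genes, doublets removed, resolution 1, collagens kept in clustering, and thinning to 1000 UMIs. Alternatives added after seeing the data were leaving out LINC-FRMD8-1, taking a class out of all nuclei, the Pyra against Gran test with its settings, and the settings for PPIB. Same-numbered libraries did not deviate together (r from -0.10 to 0.05), so the numbers were not used as pairs.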

Additional observations from a re-analysis of the deposited data

Results flagged for a closer look

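The ALP effect on COL24A1 differed between Pyra and Gran nuclei by 2.64 on the log2 scale in a test of the difference itself, with the limits given beside it in the report. The test was chosen after the values were seen.

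Barcodes outside the filters hold collagen signal. Those with more than 2500 genes entered only the alternative without that limit. The 9370 barcodes not kept carried 50293 collagen UMIs, 61.4% of all collagen UMIs, at 526 CPM against 505 CPM in kept nuclei. Most collagen UMIs therefore lie in barcodes left out of the levels in the report. The same holds for UMIs of all features, of which 95596770 of 158150651 lay in these barcodes, a share near that of the collagens.

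A class too small for a level by library held COL8A1. CajalRetzius nuclei, with RELN, TP73 and EBF3 as markers, numbered 47, of which 27 came from Control 3. They held 56 UMIs of COL8A1, found in 29 of them (61.7%), and in Control 3 its level was 493 CPM. Oligo nuclei held a UMI of COL8A1 in 0.26%.

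Features that carry a collagen name within a longer name were not among the 45 genes. The largest were COL23A1li1 with 812 UMIs in kept nuclei and COL25A1li1 with 739 UMIs. COL23A1li1 was found in InN (428 UMIs, 41.5 CPM) and stood at 331 CPM in Fibro, and COL25A1li1 in InN (341 UMIs) and Gran (182 UMIs).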

How the results depend on the processing

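The count of called collagen pairs, 0 with edgeR, was 5 with DESeq2 and 19 without the filter on low counts, where more pairs were tested. Leaving out 1 library gave 0 to 7 calls, with 4 without Control 1, 7 without Control 2, 2 without ALP 2 and 0 without each of the others. Where this left 1 library in a group, the spread came from the other group. The share of all genes called in these fits is not given here, so these counts are not read as a result about collagens. It stayed at 0 with upper-quartile normalization, nuclei above 2500 genes, doublets removed, resolution 1, collagens kept in clustering and LINC-FRMD8-1 left out. With the replicate number as a block it was 0 too, with 25 pairs at an unadjusted p under 0.05 against 27, but the numbers do not pair the libraries. PPIB lost its calls in OPC (adjusted p = 0.0742) and InN LAMP5 (adjusted p = 0.105) under the block.

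The class with the highest mean was that of the main setting for 24 of 29 collagens with nuclei above 2500 genes, for 26 with thinned shares, for 27 to 29 with the other settings of clustering and counts, and for 25 to 28 without 1 library. The Pyra minus Gran difference of COL24A1 was 1.55 with nuclei above 2500 genes and 1.64 to 3.06 without 1 library, past the threshold in 3 of these 6 fits. For single pairs with an unadjusted p under 0.05, for this difference and for PPIB, 411 values under an alternative kept direction and call. Another 30 gained the call, 18 lost it, and none of them changed direction. No collagen pair was called in the main setting, so the 18 losses were all of this difference or of PPIB. For the pairs, a kept call means only that they stayed uncalled, whatever the size of the change. They were also chosen by their p in the same data, so the 411 do not measure stability. The cause of the gains and losses was not tested. Sums of few nuclei limit Endo, Mural and Fibro, where many values rest on under 20 UMIs.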

Other observations

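In all, 190 further features carried a collagen name, with 4993 UMIs in kept nuclei, of which 92 were named as antisense (2347 UMIs) and 90 as long intergenic (952 UMIs). Some had most of their UMIs in the class where the gene of that name was high. COL5A3-AS-3 had 155 of its 203 UMIs in Astro, COL9A1-AS-2 102 of 144 in Astro and COL19A1-AS-2 105 of 137 in InN. COL24A1-AS-1 had 144 of 292 in Pyra and COL11A1-AS-1 81 of 219 in OPC. LINC-COL28A1-1 had 408 UMIs, 156 of them in Gran, while COL28A1 itself had 0. The use of strand in counting is not given in the sources used here.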
